A study of Sus scrofa with 2 samples.

Results

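Ion channels of pig back muscle were examined in 2 libraries, 1 from animals housed at 22 °C and 1 from animals housed at 30 °C. The genes were taken by symbol: every table entry with an Ensembl pig identifier whose symbol began with KCN and a letter, CACNA, CACNB, CACNG, SCN and a digit, or CLCN. This gave 101 of 27987 entries, namely 66 of the potassium group, 17 of the calcium group, 12 of the sodium group and 6 of the chloride group. The symbols reach beyond voltage-gated pores. Among the potassium entries, 9 were inward rectifiers and 10 two-pore units, which are not gated by a voltage sensor, and 11 were accessory subunits.

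The pigs were barrows, that is castrated males, bred by mating Yorkshire-Landrace sows to Duroc boars and weighing 79.0 ± 1.5 kg. All 16 came from 8 litters, with 8 per arm. Housing lasted 21 days, at a constant 22 °C for controls and a constant 30 °C for heated pigs, and no other treatment is labelled. RNA came from longissimus dorsi, the long muscle beside the spine. Their age and whether RNA of several pigs went into a library are not given in the sources used here.

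Each fibre of skeletal muscle is excited through channels in a fixed order. The sodium channel Nav1.4 carries the action potential along the surface and into the transverse tubules. There the dihydropyridine receptor, a voltage-gated calcium channel, senses the voltage and opens calcium release from the store. Potassium and chloride channels bring the membrane back to rest and set how easily it fires again.

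The values are RPKM, reads divided by gene length and library size, so levels of different genes can be compared. The estimated totals were 23608242 reads in the 22 °C library and 22863584 in the 30 °C library, and 1 read on a gene of 1 kb was worth 0.0424 and 0.0437 RPKM. Each difference is given as log2((RPKM + 1) at 30 °C/(RPKM + 1) at 22 °C), which understates the difference of low genes, or as a plain RPKM ratio with a 95% Clopper-Pearson interval. That interval rests on the smallest whole reads behind the RPKM values. It covers counting error only, since PCR copies of a molecule were not told apart. With 1 library per arm there is no replicate for any difference, and the effects of temperature, of the animals and of the library cannot be told apart. The median log2 ratio of all 13191 entries with a mean RPKM of at least 1 was 0.05, with 95% of them between -0.57 and 0.66.

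The muscle label was met by the fibre markers. ACTA1, skeletal actin, stood at 68749 and 65219 RPKM at 22 °C and 30 °C, and the fast light chain MYL11 and fast troponin TNNC2 came next, at 23031 and 21673 RPKM and at 22523 and 21011. Only 4 of 13 listed fibre markers were matched. Of the markers of neurons, SNAP25 was listed at 0 in both libraries and TUBB3 at 0.0238 and 0 RPKM.

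Of the 101 channel genes, 24 had a mean RPKM of at least 1 and were compared. A few genes of the excitation machinery held most of the signal. CACNG1, CACNA1S, CACNB1 and CACNA2D1 together took 73.7% of the summed RPKM of all channel genes at 22 °C and 71.2% at 30 °C. With SCN4A the share was 77.7% and 75.5%. By group, calcium genes took 75.6% and 73.2%, sodium genes 14.8% and 16.0%, potassium genes 7.21% and 8.40%, and chloride genes 2.37% and 2.34%. These shares cover only genes matched by symbol. Of 140 RefSeq symbols that fit the naming rule, 42 had no entry under that symbol, CLCN1 among them. The shares therefore do not give the part of each ion group in all channel RNA of the muscle. The sum over all channel genes was nearly the same, 906 and 898 RPKM.

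**Figure D1:**
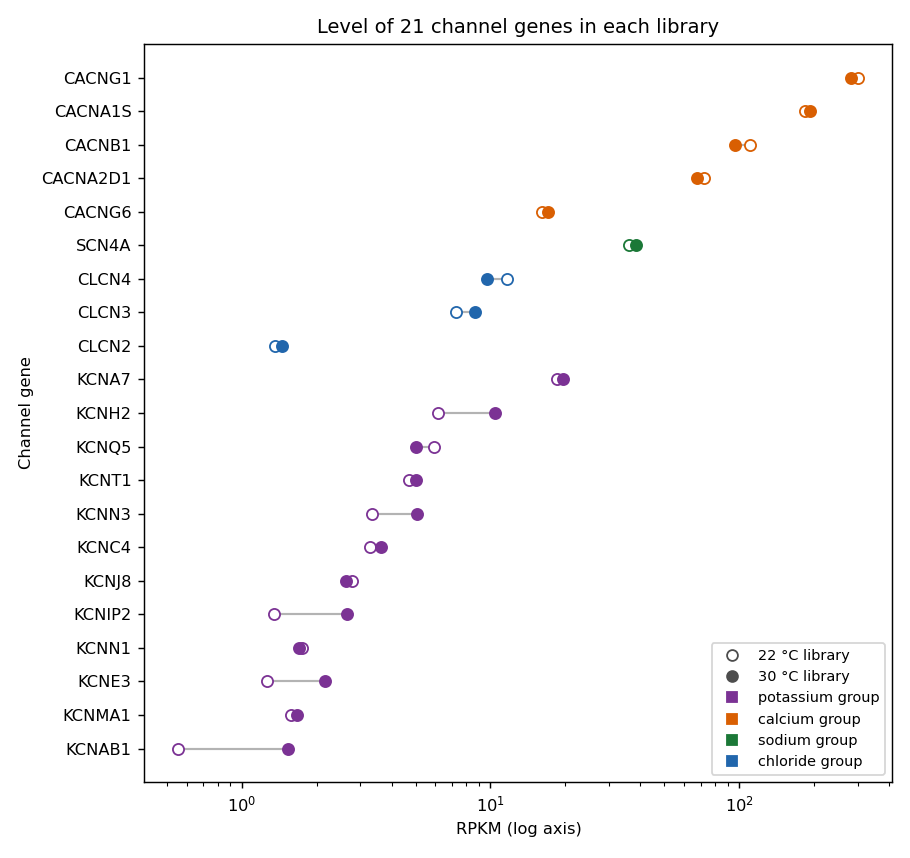
RPKM (log axis) of 21 of the 24 channel genes that averaged 1 RPKM or more, open circles for the 22 °C library and filled circles for the 30 °C library, coloured by ion group. Among these 21 genes CACNG1, CACNA1S, CACNB1, CACNA2D1 and SCN4A lie highest, led by CACNG1 at 302 and 283 RPKM. The potassium gene KCNA7 lies above the calcium gene CACNG6. KCNAB1 shows the widest gap, from 0.555 to 1.54 RPKM.

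All 4 kinds of subunit of the muscle dihydropyridine receptor were measured. CACNA1S, its pore and voltage sensor, stood at 183 RPKM at 22 °C and 192 at 30 °C, rank 305 among all entries compared. The ratio was 1.05 (1.03 to 1.07), close to the shift of all genes. CACNB1, the beta subunit that carries the pore to the membrane, stood at 111 and 96.6 RPKM, a ratio of 0.873 (0.846 to 0.901). CACNG1, the muscle gamma subunit, had the highest level of all channel genes, 302 and 283 RPKM. Its ratio was 0.936 (0.907 to 0.967). CACNA2D1, the alpha2delta subunit, stood at 71.9 and 67.5 RPKM, a ratio of 0.938 (0.906 to 0.972).

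The 3 accessory subunits were thus lower and the pore higher at 30 °C, each by less than 1.5-fold and each with the same sign under 3 other scalings. The log2 ratio of the pore gene CACNA1S fell as low as 0.0098 under these scalings, so its sign carries little. The ratios of CACNG1 and CACNA2D1 were also near those of 3 of the 4 matched fibre markers. These were ACTA1 (0.949), MYL11 (0.941) and TNNC2 (0.933), while the fourth, DES, had a ratio of 1.17. CACNB1 amounted to 0.603 times CACNA1S at 22 °C and 0.502 times at 30 °C, per length, and CACNG1 to 1.65 and 1.47 times. CACNG6, a further gamma subunit, stood at 16.2 and 16.97 RPKM, with an interval that holds 1. Over the 5 calcium genes compared the median log2 ratio was -0.09, with 2 above 0 and 3 below.

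The other calcium channel genes lay under 1 RPKM. CACNA1D and CACNA1G, pores best known from the heart and nervous system, stood at 0.0383 and 0.0395 RPKM and at 0.179 and 0.179 RPKM. CACNG8, a gamma subunit known from brain glutamate receptors, stood at 0.885 and 0.637 RPKM. CACNA2D2, a second alpha2delta gene singled out after its values were seen, stood at 0.0508 and 0.201 RPKM. That is a ratio of 3.96 (1.57 to 11.9) from a minimum of 6 and 23 reads.

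Sodium channel genes showed the muscle pattern. SCN4A, which encodes Nav1.4, stood at 36.2 RPKM at 22 °C and 38.6 at 30 °C, a ratio of 1.07 (1.02 to 1.11). Its log2 ratio of 0.09 was slightly above the shift of all genes. Of the 12 sodium genes, 10 lay under 1 RPKM. Among these, the beta subunit SCN2B stood at 0.137 and 0.227 RPKM.

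SCN7A, a sodium channel relative with an altered voltage sensor and singled out after its values were seen, stood at 0.172 and 0.0592 RPKM. The ratio was 0.344 (0.0979 to 0.996) on at least 15 and 5 reads. Of the 10 listed markers of Schwann cells and nerve, 5 were matched and 3 compared, of which 2 were lower and 1 higher at 30 °C. Whether nerve content has a part in the SCN7A values was not tested.

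Among the 24 genes compared, the highest ratios were those of potassium channel genes. Of these 24 genes, 3 were at least 1.5-fold higher at 30 °C on the log2(RPKM + 1) scale, where 3.44% of all entries compared were. None was at least 1.5-fold lower, where 2.37% of all entries were and 2.93% of those with a mean RPKM under 10. All 3 had a mean RPKM under 10, where 4.43% of all entries were at least 1.5-fold higher and 3 of 15 channel genes were. They were the pore gene KCNH2 and the accessory genes KCNAB1 and KCNIP2. KCNAB1 passed the filter on the mean only through the 30 °C library, so it had to differ in that direction to be counted. None reached 2-fold on that scale, which 0.629% of all entries did upwards.

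KCNH2 (ENSSSCG00000016448) encodes ERG1, the delayed rectifier best known from the repolarisation of the heart and described in atrophying muscle of mice. It stood at 6.16 RPKM at 22 °C and 10.4 at 30 °C, on at least 219 and 359 reads. The ratio was 1.69 (1.43 to 2.01) and the log2 ratio 0.67, rank 311 from the top of all entries compared. Its relatives KCNH3, KCNH4 and KCNH6 lay under 0.04 RPKM in both libraries.

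KCNAB1 (ENSSSCG00000025810) encodes a cytosolic beta subunit that can inactivate Kv1 channels. It was near the lowest level compared, 0.555 RPKM at 22 °C and 1.54 at 30 °C, on at least 35 and 94 reads. The ratio of 2.77 (1.86 to 4.21) was the highest of the 24 genes, and the log2 ratio was 0.71. Of the Kv1 pores with which it can assemble, only those with an entry under their symbol are covered. Among these, KCNA7 was the only one compared and the highest potassium gene, at 18.4 and 19.7 RPKM. The interval of its ratio holds 1 (0.953 to 1.19). KCNA1, KCNA3, KCNA4 and KCNA10 lay under 0.25 RPKM in both libraries.

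KCNIP2 (ENSSSCG00000010570) encodes a calcium-binding subunit of Kv4 channels. It stood at 1.35 RPKM at 22 °C and 2.65 at 30 °C, on at least 69 and 131 reads. The ratio was 1.96 (1.45 to 2.66) and the log2 ratio 0.63, which became 0.58, just below the 1.5-fold limit, when all ratios were centred on their median. The Kv4 pores KCND1, KCND2 and KCND3 each lay under 0.1 RPKM in both libraries. KCNIP3, of the same calcium-binding family, stood at 0.606 and 0.864 RPKM, with an interval that holds 1 (0.786 to 2.63).

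A plain ratio of at least 1.5 was found for 2 more potassium genes. KCNE3 (ENSSSCG00000029323), a single-span subunit described as a partner of Kv3.4 in skeletal muscle, stood at 1.26 and 2.16 RPKM. Its ratio was 1.72 (1.26 to 2.37) and its log2 ratio 0.49. KCNC4, which encodes Kv3.4, stood at 3.26 and 3.64 RPKM, with an interval that holds 1 (0.903 to 1.38). KCNN3 (ENSSSCG00000006542) encodes SK3, a small-conductance channel opened by calcium that appears in rodent muscle after loss of its nerve. It stood at 3.35 and 5.07 RPKM, a ratio of 1.51 (1.26 to 1.82) and a log2 ratio of 0.48.

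The 3 accessory potassium genes compared, KCNAB1, KCNIP2 and KCNE3, were all higher at 30 °C, with log2 ratios from 0.49 to 0.71. KCNAB1 passed the filter only through the 30 °C library, while KCNIP2 and KCNE3 were above 1 RPKM in both. The filter also left out 8 other accessory genes. Of these, KCNMB1 (1.19 and 0.766 RPKM) and KCNE1 (0.543 and 0.224, a minimum of 5 and 2 reads) had ratios of 0.645 and 0.413, with intervals that hold 1. The 6 voltage-gated pores compared had a median of 0.10. Summed over all 11 accessory genes, the level was 5.58 RPKM at 22 °C and 8.37 at 30 °C, while all 28 voltage-gated pores summed to 43.3 and 48.9 RPKM. The higher accessory sum comes mainly from KCNAB1, KCNIP2 and KCNE3. The other accessory genes together were lower at 30 °C, although KCNIP3 (0.606 and 0.864 RPKM), KCNMB3 and KCNIP4 were higher. The sum therefore does not describe the accessory genes as a class. The sums come from 1 library each, and the difference between the kinds was not tested.

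**Figure D2:**
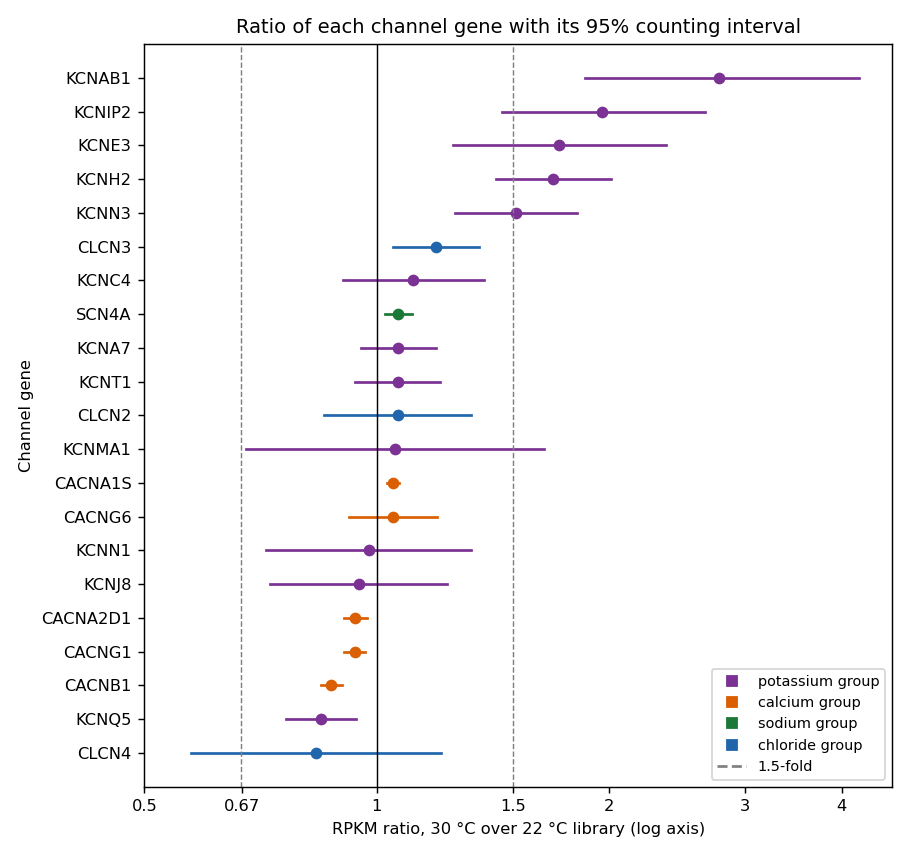
RPKM ratio (30 °C over 22 °C library, log axis) of 21 of the 24 channel genes, points with 95% counting intervals as lines, coloured by ion group; dashed lines mark 1.5-fold either way. The 5 points at or beyond the right dashed line are potassium genes, from KCNN3 at 1.51 to KCNAB1 at 2.77, and most other intervals lie across or near 1.

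The remaining potassium genes compared were closer between the libraries. KCNQ5, a Kv7 pore, was lower at 30 °C, at 5.93 and 5.02 RPKM, a ratio of 0.847 (0.762 to 0.941). KCNT1, a sodium-activated pore, stood at 4.71 and 5.01 RPKM, and KCNN1, the SK1 pore, at 1.75 and 1.71. Both of these intervals hold 1.

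Some potassium genes are known chiefly from vessel walls. KCNJ8, the Kir6.1 pore of ATP-sensitive channels in smooth muscle and pericytes, stood at 2.78 and 2.64 RPKM. KCNMA1, the large-conductance calcium-activated pore, stood at 1.57 and 1.66 RPKM, and its smooth muscle subunit KCNMB1 at 1.19 and 0.766 RPKM. All 3 intervals hold 1. The 4 matched markers of smooth muscle and pericytes summed to 103 and 113 RPKM, with ACTA2 higher (52.03 and 67.9) and CNN1 (34.9 and 30.6) and NOTCH3 (10.6 and 8.94) lower at 30 °C.

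Markers of other cells also differed between the libraries. The 3 matched endothelial markers summed to 121 and 138 RPKM, with 2 of 3 higher at 30 °C. The 4 matched immune markers summed to 9.65 and 14.2 RPKM, with 3 of 4 higher, and the 2 matched adipocyte markers to 17.6 and 10.1, both lower. Haemoglobin HBB stood at 89.0 and 112 RPKM, and the 3 matched fibroblast markers summed to 214 in each library. That sum is mostly DCN (186 and 190), while PDGFRA and LUM were lower at 30 °C, at ratios of 0.742 (0.615 to 0.895) and 0.908 (0.851 to 0.969). Fewer cells of a type and less RNA per cell cannot be told apart in such samples. The part of cell content in the KCNH2, KCNAB1, KCNIP2, KCNE3 and KCNN3 values was not tested.

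In the chloride group, CLCN1, the main chloride channel of the muscle surface, is not analysed here. CLCN4 and CLCN3, chloride-proton exchangers of endosomes, were the 2 highest members. CLCN4 stood at 11.6 RPKM at 22 °C and 9.70 at 30 °C, a ratio of 0.835 whose interval holds 1 (0.575 to 1.21). That interval rests on a minimum of 68 and 55 reads and can be too wide. CLCN3 stood at 7.24 and 8.64 RPKM, a ratio of 1.19 (1.05 to 1.36). Their order stayed the same, with CLCN4 at 1.605 times CLCN3 at 22 °C and 1.12 times at 30 °C. CLCN2, a channel opened by hyperpolarisation, stood at 1.36 and 1.45 RPKM, and CLCN6, a further exchanger, at 0.859 and 0.925 RPKM, both with intervals that hold 1.

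Across the 24 genes the median log2 ratio was 0.07, against 0.05 for all entries compared, and 17 were above 0, where 58.8% of all entries were. The median was 0.10 for the 14 potassium genes, of which 11 were above 0, and 0.05 for the 3 chloride genes. The counting interval lay above 1 for 9 genes, where it did for 20.6% of all entries compared, and below 1 for 4, where it did for 10.6%. The 9 genes that averaged 10 RPKM or more had ratios between 0.835 and 1.08. Under 3 other scalings, 22 of the 24 genes kept the sign of their log2 ratio, and KCNMA1 and KCNN1 did not.

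**Figure D3:**
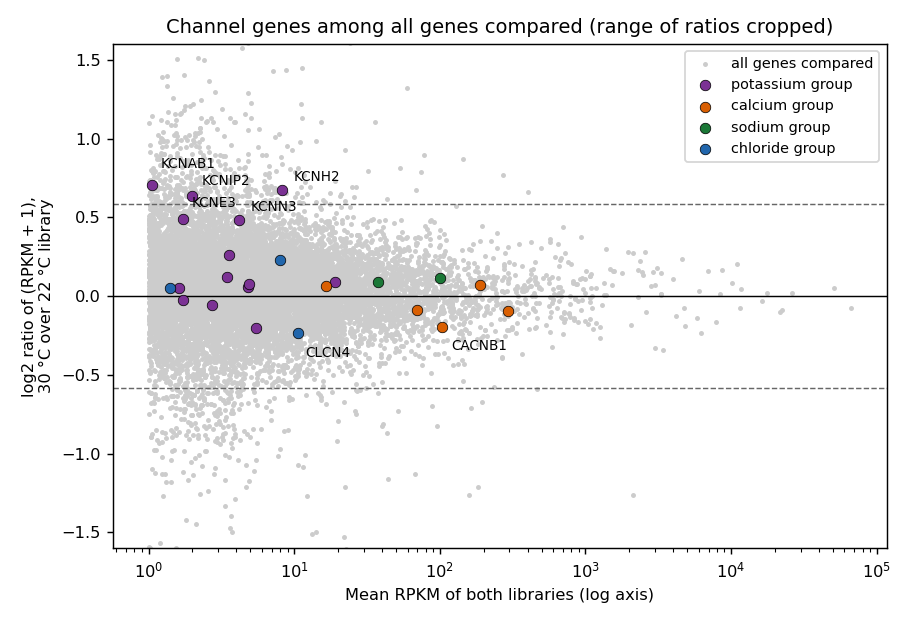
Log2 ratio of (RPKM + 1), 30 °C over 22 °C library, against the mean RPKM (log axis) for the 13191 entries compared (grey) and the 24 channel genes (coloured by ion group), with dashed lines at 1.5-fold and the vertical range cropped. KCNAB1, KCNIP2 and KCNH2 lie above the upper line. KCNAB1 and KCNIP2 have means of 1.05 and 1.997 RPKM, where grey points spread widely, and KCNH2 has a mean of 8.29 RPKM. The calcium and sodium genes lie between the lines at the right.

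The other 77 channel genes had a mean RPKM under 1. Of these, 39 were above 0 in both libraries, 18 in the 22 °C library alone and 7 in the 30 °C library alone. Among all 21398 entries above 0, 4.81% and 3.82% were above 0 in the 22 °C and the 30 °C library alone. These shares are not those of low entries, since 13191 of the 21398 had a mean RPKM of at least 1. In counts, 1030 and 818 of all entries were above 0 in 1 library alone. Beside these, 6373 entries with a mean RPKM under 1 were above 0 in both. Of the 25 genes seen in 1 library, 22 rest on a minimum of 1 read, and a count of 0 allows up to 3 reads, so no difference was detectable at this depth. The largest of these was CACNG7, at 0.0800 RPKM and 0 on at least 4 reads, where 3 reads at 30 °C would give 0.0619 RPKM.

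A further 13 genes were listed at 0 in both libraries, as were 23.5% of all entries. They were the calcium pore CACNA1F, the voltage-gated potassium pores KCNC2, KCNG3, KCNH7 and KCNH8, the inward rectifiers KCNJ1, KCNJ4, KCNJ6 and KCNJ13, the two-pore units KCNK3 and KCNK17, the calcium-activated subunit KCNMB2 and the sperm channel KCNU1. No two-pore gene was compared, and the highest of them was KCNK7, at 0.596 and 0.568 RPKM. The 5 low genes with the highest mean were KCNMB1, CLCN6, CACNG8, KCNIP3 and the inward rectifier KCNJ14 (0.658 and 0.729 RPKM). All 5 intervals hold 1. Only 13 low genes had a minimum of 10 or more reads in both libraries. The interval lay above 1 for CACNA2D2 alone and below 1 for SCN7A alone, where it lay above 1 for 12% and below 1 for 4.46% of all such low entries.

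The cut at a mean RPKM of 1 fell between KCNAB1, at a mean of 1.05, and KCNMB1, at 0.976. By gene order in the Sscrofa11.1 annotation of RefSeq, 98 of the 101 genes were placed, and 11 pairs had at most 3 coding genes between them. Neighbours could differ widely in level. CACNG6 had a mean of 16.6 RPKM and CACNG7 beside it 0.04 RPKM. The sodium genes SCN1A, SCN9A and SCN7A, which lie in a row, each had a mean of at most 0.12 RPKM.

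Genes that work with these channels were described from 4 lists, of which only part could be matched. On the log2(RPKM + 1) scale no compared gene of these lists was at least 1.5-fold apart, where 5.81% of all entries compared were. As plain RPKM ratios, MUSK and TRPM7 were past 1.5. For the triad, where the dihydropyridine receptor meets the calcium store, 16 of 30 listed genes were matched, without RYR1 and STAC3. Their median log2 ratio was 0.05, with 10 above 0 and 6 below. SLN, the calcium pump inhibitor sarcolipin, was the highest by level, at 6590 and 7356 RPKM. The sodium-calcium exchanger SLC8A3 (3.92 and 4.87 RPKM) had one of the highest ratios. The lowest were those of the surface calcium pump ATP2B4 (10.5 and 8.88) and the triad protein SYPL2 (221 and 190).

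For the sodium pump and the membrane scaffold, 17 of 24 listed genes were matched and 15 compared, with a median of 0.08, 8 above 0 and 7 below. ATP1B4, a muscle member of the pump's beta family, had the highest log2 ratio, 0.47, at 71.4 RPKM at 22 °C and 99.6 at 30 °C. NEDD4L, a ubiquitin ligase for sodium channels, followed at 3.22 and 4.28 RPKM. The lowest were the syntrophin SNTB1 (26.6 and 24.7) and the pump subunit ATP1B2 (6.26 and 5.81). BIN1, which shapes transverse tubules, had the highest level, 655 and 621 RPKM.

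For the neuromuscular junction, 10 of 17 listed genes were matched and 7 compared, with a median of -0.01, 3 above 0 and 4 below. MUSK, the kinase that clusters acetylcholine receptors, had the highest log2 ratio, 0.54, at 1.06 and 2.002 RPKM (ratio 1.89, 1.38 to 2.60). ERBB2, a neuregulin receptor, stood at 14.1 and 16.7 RPKM. The lowest were the synaptic laminin LAMB2, also the highest by level (32.1 and 27.6), and the esterase ACHE (1.98 and 1.58).

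Of other channels and channel partners, 27 of 36 were matched and 13 compared, with a median of 0.08, 9 above 0 and 4 below. ABCC9, the sulphonylurea receptor that joins Kir6 pores, had the highest log2 ratio, 0.47, at 11.4 and 16.2 RPKM. TRPM7, a channel with a kinase domain, stood at 2.48 and 3.74 RPKM. The lowest were TRPM4 (5.25 and 4.18) and ANO10 (5.38 and 4.499), and the ATP-gated P2RX5 had the highest level (62.9 and 66.4).

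**Figure D4:**
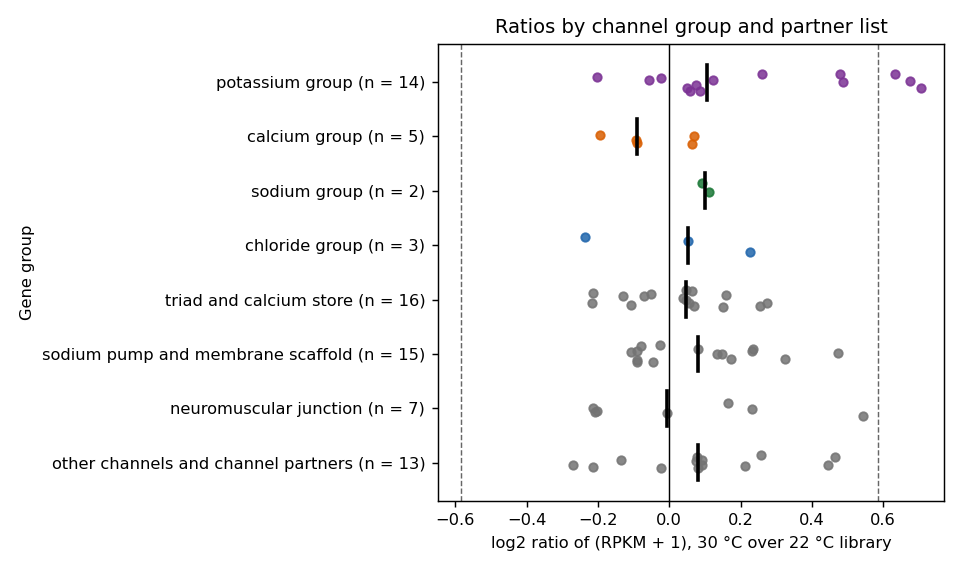
Log2 ratio of (RPKM + 1), 30 °C over 22 °C library, for the compared genes of each ion group and partner list, 1 point per gene with vertical jitter; black bars are medians and dashed lines 1.5-fold. The potassium points reach furthest to the right, to 0.71, while the medians of all 8 groups lie between -0.09 and 0.10.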

How the data were processed

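Messenger RNA was measured in 1 library per temperature. The authors deposited 1 RPKM value per entry and library. Per the labels' protocols, 3 µg of RNA per library was selected on poly-T beads, copied with random primers and amplified for 10 PCR cycles. Strand marking is not described, so a gene and its antisense or overlapping partner may share reads. Bowtie, TopHat 1.4.0, Cufflinks 1.3.0 and Sscrofa10.2 are named, with no role, per the submitters' processing notes. The sources used here do not say how reads shared by similar genes were counted, so closely related channel genes are uncertain. A table of pig gene names gave a symbol to 11374 of 27987 entries, and 42 of 140 RefSeq symbols that fit the naming rule had no entry under that symbol and are not analysed here.

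Totals were estimated as the largest that make gene lengths whole. The smallest whole length then made both values of all 21398 entries above 0 whole reads within the rounding of the printed decimals, and 2.3% of 3000 entries with a wrong total. These reads are minimums, which can make the intervals too wide for counting error. They leave out PCR copies and differences between animals and libraries, for which they are too narrow. Steps were tested on simulated reads, with Python 3.11.15, numpy 2.4.6, scipy 1.17.1 and pandas 2.3.3. No test across pigs was possible. Every channel gene with a mean RPKM of at least 1 was named, the 5 highest below it, and of each partner list the 2 highest, the 2 lowest and the gene with the highest level. Members and lists were chosen with earlier results of these data known. Alternatives were pseudocounts of 0.1 and 5, other filters, 3 scalings, summed symbols and the counting interval. Protein features were not analysed here, and some genes that the naming rule would give are not reported here.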

Additional observations from a re-analysis of the deposited data

How the results depend on the processing

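No paired analysis was possible because each temperature has 1 library. With a pseudocount of 0.1 in place of 1, 4 channel genes were at least 1.5-fold higher, and 934 and 565 of all entries were at least 1.5-fold higher and lower, against 454 and 313. With a pseudocount of 5 the channel count was 0 (KCNH2 had a log2 ratio of 0.47), and the counts over all entries were 53 and 59. With no filter the latter were 785 and 482, and the medians of the potassium and sodium groups were -0.021 and 0.00087. Among entries that averaged 5 RPKM or more, which are fewer, 1 channel gene was higher, KCNH2, with 97 and 69 over all such entries. The number of entries changes with the filter, so shares cannot be read from these counts or from those with no filter. By the counting interval in place of a fold, 9 channel genes were higher and 4 lower, with 2713 and 1393 over all entries. After centring on the median, 2 channel genes were higher and KCNIP2 was just inside the limit. In the other cases the cause was not tested. Of 180 log2 ratios of the 24 genes under alternatives, 170 moved by less than 0.1 and none that was past 1.5-fold turned direction. The 10 that moved further all did so under another pseudocount. These counts do not measure robustness. Filters and summed rows could not change the ratio of a gene, and a pseudocount cannot turn its sign. Summing rows of a symbol left the channel genes as they were. Depth limits the 77 low genes most.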

Other observations

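Pore and partner of ATP-sensitive channels stood apart in their ratios. ABCC9 had a ratio of 1.41 (1.31 to 1.53), while that of KCNJ8, a pore with which it assembles in vessels, was 0.949 (0.728 to 1.23). KCNJ11, the pore of muscle fibres, is not analysed here. The other receptor of this family, ABCC8, stood at 0.0761 and 0.166 RPKM.

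Of genes described in rodent muscle after loss of its nerve, KCNN3 and MUSK were higher at 30 °C, at ratios of 1.51 and 1.89. CHRNA1, the alpha subunit of the acetylcholine receptor, stood at 5.36 and 6.12 RPKM, with an interval of the ratio that holds 1 (0.928 to 1.41). These genes were put side by side after their values were seen.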
